A study of Mus musculus with 4 samples.

Results

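RNA of muscle-derived stem cells (MDSCs) from dystrophin-deficient mdx mice was compared with RNA of MDSCs from wild-type (WT) mice on a membrane array that carries oligonucleotides for genes of stem cells and their lineages. The comparison covered every gene on the array, 268 of 268, with the spots of one gene averaged and 14 control spots left out. The series holds 4 arrays, 1 for each MDSC type, and the other 2 carried RNA of MDSCs from mice without myostatin (Mst KO) and from mice with an Oct4 promoter and reporter transgene (Oct4 transgenic). The WT mice were male C57BL/6J. The mdx mice were male with the genotype given as 10ScSn-Dmdmdx (mdx), while the sample record names C57BL/6J as their background strain too. No treatment is named for either culture. All cells came from hind limb muscle by preplating, a series of replatings that leaves the slowly adhering cells, and were grown in serum-rich medium until nearly confluent. The methods describe the isolation from adult WT and Mst KO mice, with selection for Sca1, and do not describe that of the mdx cells, and the age of the mdx mice used for the cells is not given. The RNA on an array was pooled from several flasks of 1 MDSC type, so that the spread between flasks or preparations cannot be read. Genotype, strain record, preparation and array therefore cannot be told apart in any value that follows, and no test was possible.

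Dystrophin links the actin cytoskeleton of the muscle fiber to the membrane and through it to the matrix outside. Without it fibers are damaged when they contract and are rebuilt by resident stem and precursor cells, and in late disease muscle is replaced by fibrous tissue and fat. MDSCs are multipotent cells of muscle that can enter the myogenic program, which is driven by factors such as MyoD, or give rise to matrix-producing cells. Dystrophin itself is not analysed here, and these values cannot check the genotype of the mdx culture.

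The values are normalized spot intensities as deposited, in which the lowest spot of the array was taken as background and the remainder divided by 1 factor for the array. This factor was 370 for WT and 309 for mdx, and the brightest spot had a raw intensity of 59363 on the WT array and 58174 on the mdx array. Of the 268 genes, 136 were called present on the WT array and 126 on the mdx array, with 119 present on both, 17 on the WT array only, 7 on the mdx array only and 125 on neither. Of the markers set for MDSCs, only Cd44 and Pou5f1 were among the genes of the array. Both were present on both arrays, with a summed intensity of 11.6 in WT and 12.7 in mdx MDSCs. Cd34 and Ly6a (Sca1) were not among the genes, so these values cannot check them. None of the markers set for endothelial (Cdh5 and Kdr), epithelial (Cdh1 and Krt15) or cartilage cells (Acan, Col2a1 and Col9a1) was present on either array. Outside these sets, the endothelial connexin gene Gja4 and the type X collagen gene Col10a1 were present on both arrays. The pan-leukocyte gene Ptprc was absent on both arrays, at 0.047 in WT and 0.440 in mdx MDSCs, and of the 8 hematopoietic markers 2 were present on the WT array and 3 on the mdx array. In RNA of a whole culture, fewer cells of a type and less RNA per cell cannot be told apart.

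The genes farthest below WT in mdx MDSCs were Spp1, Actc1, Myod1 and Cdh15, from the list for skeletal myogenesis. The gene farthest above WT was Mme, of the hematopoietic, immune and endothelial list, which was called absent on the WT array. It was followed by Pdgfra and Cdh11, which mark matrix-producing mesenchymal cells, and by the CDK inhibitor gene Cdkn2b. A ratio was read for the 143 genes with a present call on either array. By a factor of 2 or more, 12 of them (8.39%) were higher in mdx MDSCs and 19 (13.3%) lower, and the other 112 (78.3%) lay within 2-fold. The counts of every gene list below are to be read beside these shares. The median log2 ratio of mdx over WT was -0.03, with quartiles of -0.47 and 0.24. Both directions were found over the whole range of intensity. Of 65 genes with a mean intensity of the 2 arrays below 2, 6 were higher and 10 lower. Of 43 genes between 2 and 10, 3 were higher and 5 lower, and of 35 genes at 10 or above, 3 were higher and 4 lower. Nearest to the threshold, Cdkn2a and S100b lay just inside it at 2.08-fold and 2.17-fold. Cdk4 at 1.96-fold, Frat1 at 1.92-fold, Rb1 at 1.84-fold, Hdac1 at 1.83-fold and Fgf7 at 1.82-fold lay just outside.

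**Figure D1:**
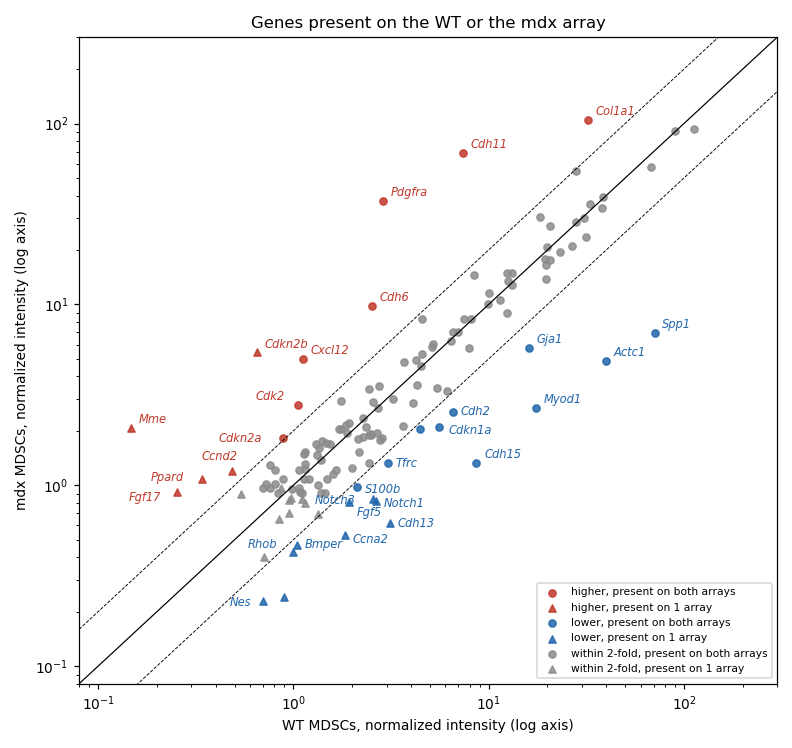
Normalized intensity of the 143 genes with a present call on either array, WT on the x axis and mdx on the y axis, both on log axes, with equality as a solid line and 2-fold as dashed lines. Circles are genes present on both arrays and triangles genes present on 1. Col1a1, Cdh11 and Pdgfra lie above the band of the other bright genes, and Spp1, Actc1, Myod1, Gja1 and Cdh15 below it.

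The list for skeletal myogenesis holds 10 genes, of which 7 were present, and 4 of these were lower in mdx MDSCs, 0 higher and 3 within 2-fold. Their median log2 ratio was -2.70, against -0.03 over all 143 genes. Spp1, also a bone gene, and the cadherin Cdh15 were counted in this list and not in those for bone or cadherins. The median depends on this placing. The study had chosen Spp1, Actc1, Myod1, Cdh15, Myf5 and Igf1 with the same WT array, so that this count and median are not independent evidence. Spp1, which encodes osteopontin, a secreted phosphoprotein of bone and of injured muscle, reached a normalized intensity of 70.7 in WT MDSCs but 6.98 in mdx MDSCs, and was at 20.3 on the Mst KO and 12.2 on the Oct4 transgenic array. Its log2 ratio of mdx over WT was -3.34, the lowest of the 143 genes. Actc1, the cardiac alpha-actin that is also made in young skeletal myotubes, was at 39.9 in WT and 4.87 in mdx MDSCs, with 6.52 and 5.23 on the Mst KO and Oct4 transgenic arrays (log2 ratio -3.03). Its WT value thus stood alone, and the mdx value was close to the other 2 arrays.

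Myod1, which encodes the transcription factor MyoD that commits cells to the myogenic lineage, was at 17.5 in WT and 2.68 in mdx MDSCs, and at 2.65 and 1.68 on the Mst KO and Oct4 transgenic arrays (log2 ratio -2.71). Cdh15, the M-cadherin of myoblasts and satellite cells, was at 8.67 in WT and 1.34 in mdx MDSCs, and at 1.66 and 1.06 on the others (log2 ratio -2.70). For Cdh15 the mdx value lay between those of the Mst KO and Oct4 transgenic arrays. For Myod1 it was nearly equal to the Mst KO value and above the Oct4 transgenic value. All 4 genes were called present on both arrays, so none of these ratios rests on an absent call. In raw intensity, before background and scaling, Spp1 was at 26362 in WT and 2338 in mdx, Actc1 at 14965 and 1686, Myod1 at 6657 and 1007, and Cdh15 at 3398 and 591.

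The other 3 present members of the program lay within 2-fold of WT. Myf5, the myogenic factor that acts beside MyoD in precursor cells, was at 2.69 in WT and 1.94 in mdx MDSCs (log2 ratio -0.47). Des, the intermediate filament protein desmin, was at 7.92 and 5.77 (-0.46). Igf1, a growth factor for muscle, was at 4.24 and 4.91 (0.21). The paper prints higher WT values for Myf5 and Igf1 than the deposited ones used here. Myf6, Mef2a and Msx1 were absent on both arrays. The 6 myogenic markers had a summed intensity of 76.9 in WT and 17.1 in mdx MDSCs, with 5 of the 6 present on each array. This sum includes Actc1, Myod1 and Cdh15, already counted as lower, and is not independent evidence. MyoD binds the E-box, whose letters are CANNTG, and the CArG box is bound by serum response factor, a regulator of muscle actin genes. Promoters are therefore shown for 3 of the 4 lower genes of the skeletal myogenesis list, and for Pdgfra as a gene that was higher in mdx MDSCs. They were chosen by their values. Each runs from 250 bases before to 50 bases after a start site in RefSeq, build GRCm38.p6, and the capitals mark every E-box, which reads the same on both strands, and in Actc1 also the CArG box. The motifs do not overlap.
Actc1 (chr2:114052826-114053125, minus strand): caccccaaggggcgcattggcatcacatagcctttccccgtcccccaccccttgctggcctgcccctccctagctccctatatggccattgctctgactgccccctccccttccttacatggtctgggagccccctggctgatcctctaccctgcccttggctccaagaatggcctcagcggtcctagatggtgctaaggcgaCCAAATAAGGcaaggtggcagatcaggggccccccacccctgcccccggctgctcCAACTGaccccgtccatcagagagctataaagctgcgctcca
Cdh15 (chr8:122848124-122848423, plus strand): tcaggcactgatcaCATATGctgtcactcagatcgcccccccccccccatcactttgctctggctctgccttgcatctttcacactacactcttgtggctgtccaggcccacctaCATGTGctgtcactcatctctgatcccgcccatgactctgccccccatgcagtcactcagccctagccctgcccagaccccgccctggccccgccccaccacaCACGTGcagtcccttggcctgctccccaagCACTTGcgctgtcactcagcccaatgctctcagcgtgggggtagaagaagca
Spp1 (chr5:104434861-104435160, plus strand): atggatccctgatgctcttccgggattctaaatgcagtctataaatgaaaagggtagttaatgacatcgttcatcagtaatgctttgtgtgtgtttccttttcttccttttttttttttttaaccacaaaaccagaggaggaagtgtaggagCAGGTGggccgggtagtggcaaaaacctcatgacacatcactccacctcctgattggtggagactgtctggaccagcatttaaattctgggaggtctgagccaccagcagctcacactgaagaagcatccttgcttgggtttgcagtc
Pdgfra (chr5:75152001-75152300, plus strand): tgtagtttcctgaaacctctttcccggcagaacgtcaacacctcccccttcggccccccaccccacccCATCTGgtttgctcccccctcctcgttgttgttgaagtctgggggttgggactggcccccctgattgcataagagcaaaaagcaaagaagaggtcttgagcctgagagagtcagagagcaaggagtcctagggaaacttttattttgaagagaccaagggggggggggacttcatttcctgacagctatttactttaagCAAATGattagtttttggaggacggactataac

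Cdh15 held 4 E-boxes, and of 32851 RefSeq promoters of this length 6.49% held as many or more. Pdgfra held 2, as 39.6% of promoters did at least. Actc1 and Spp1, the latter shown at the first of its 2 listed start sites, held 1 each, and 72.3% of promoters held at least 1. The CArG box was found in Actc1 and not in the other 3 windows, and 1.63% of all promoters held it. These are matches of letters and were not tested as binding sites.

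Of 7 genes for PDGF signaling, chemokines and related receptors 4 were present, with 2 higher, 0 lower and a median log2 ratio of 1.13. Pdgfra, the receptor for platelet-derived growth factors that marks fibro-adipogenic cells of muscle, was at 2.90 in WT MDSCs and 37.5 in mdx MDSCs, with 19.7 on the Mst KO and 9.56 on the Oct4 transgenic array. Its log2 ratio was 3.70. Cdh11, the cadherin of osteoblasts and fibroblasts, was at 7.39 in WT and 68.7 in mdx MDSCs, with 65.6 and 22.3 on the others (log2 ratio 3.22). For Cdh11 the mdx and Mst KO arrays were nearly equal, whereas for Pdgfra the mdx array was the highest of the 4.

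Col1a1, a chain of type I collagen and a main product of fibroblasts, was at 32.2 in WT and 105 in mdx MDSCs, and at 55.0 and 30.1 on the Mst KO and Oct4 transgenic arrays (log2 ratio 1.70). Cxcl12, a chemokine that attracts and retains stem and blood cells, was at 1.12 in WT and 5.01 in mdx MDSCs, and at 10.2 and 6.38 on the others (log2 ratio 2.16). The 4 mesenchymal and fibroblast markers, present on both arrays, had a summed intensity of 43.6 in WT and 216 in mdx MDSCs. These are Col1a1, Pdgfra, Cdh11 and Cxcl12, each already counted as higher, so the sum is not independent evidence. The ligands of the receptor were close on the 2 arrays. Pdgfa was at 6.97 in WT and 7.05 in mdx MDSCs (log2 ratio 0.02) and Pdgfb at 12.6 and 13.5 (0.10). The Cxcl12 receptor Cxcr4, and the receptor Kit and its ligand Kitl, were absent on both arrays. Of the 8 genes of matrix, cartilage and bone, 3 were present, and besides Col1a1 these were Akp2 (now Alpl), the tissue-nonspecific alkaline phosphatase, at 6.38 and 6.30, and Cd44, the hyaluronan receptor and an osteopontin receptor, at 1.60 and 1.15. Spp1, which was lower in mdx MDSCs, was counted in the skeletal myogenesis list instead.

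Snai2, a zinc-finger repressor of epithelial genes, was at 18.4 in WT and 30.4 in mdx MDSCs, a log2 ratio of 0.72. Snai1, its close relative, was at 3.71 and 4.81 (0.38). Of 2 measured nuclear receptors of lipid metabolism, Pparg, which drives fat cell differentiation, was at 1.13 and 1.49 (0.41). Ppard was absent on the WT array at 0.342 and present on the mdx array at 1.08 (log2 ratio 1.66). It was at least 1.56-fold higher with the absent value brought up to 0.697, the lowest intensity called present on the WT array. Other lower limits were set the same way and hold for the deposited values only. With no background subtraction and 5 housekeeping genes, Cdkn2b and Notch1 had log2 ratios of 2.31 and -1.23. These were smaller in size than their limits of 2.96 and -1.56, whereas for Rhob the limit was the smaller.

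**Figure D2:**
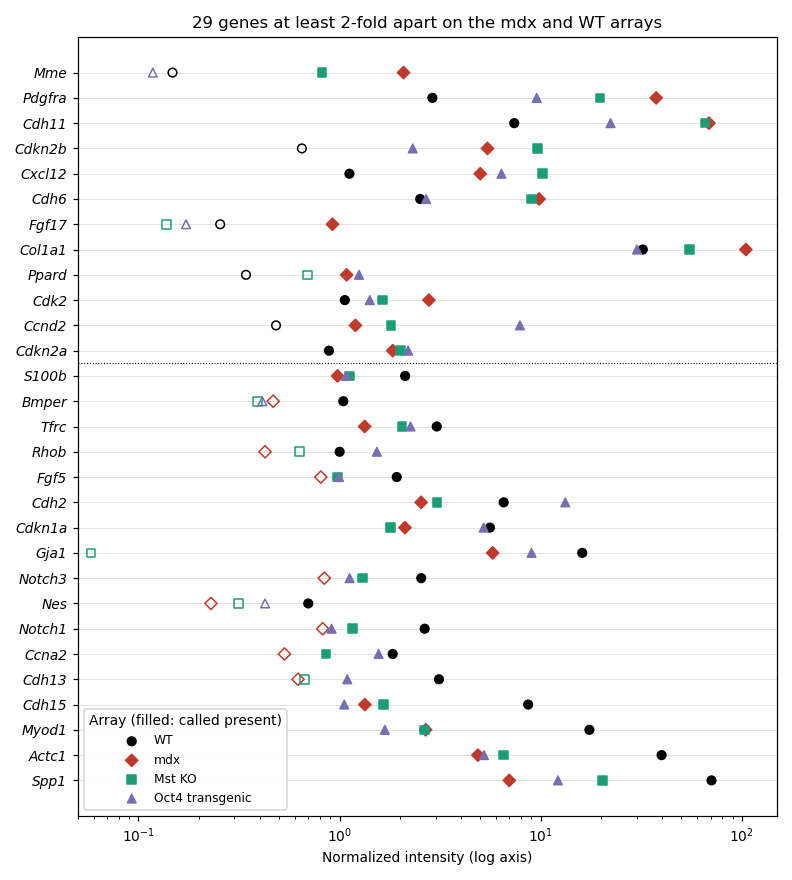
Normalized intensity on a log axis of 29 of the 31 genes at least 2-fold apart on the mdx and WT arrays, 1 row for each gene, in order of the log2 ratio, with genes higher in mdx above the dotted line. Each symbol is 1 array and open symbols are values called absent. The WT value of Actc1, Myod1 and Cdh15 stands apart from the other 3 arrays, while for Fgf17 and Mme the mdx value is at least 2-fold above each of the other 3.

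Cadherins, the calcium-dependent adhesion molecules that sort cells by type, differed in both directions. Of 15 cadherin and catenin genes 6 were present, with 2 higher, 2 lower and 2 within 2-fold and a median log2 ratio of -0.20. Cdh6, first known from kidney, was at 2.52 in WT and 9.83 in mdx MDSCs, and at 9.02 and 2.69 on the Mst KO and Oct4 transgenic arrays (log2 ratio 1.96). Cdh2, the N-cadherin of nerve and muscle cells, was at 6.55 in WT and 2.54 in mdx MDSCs, and at 3.05 and 13.3 on the others (log2 ratio -1.36). Cdh13, a cadherin anchored in the membrane by a lipid, was present in WT MDSCs at 3.12 but not in mdx MDSCs, at 0.622, and at 0.668 and 1.09 on the others (at least 3.47-fold lower). With Cdh11 and Cdh15 these were all the cadherins called present, and each lay past 2-fold. Their cytoplasmic partners lay within it, with Ctnnb1 (beta-catenin) at 28.1 and 28.6 and Ctnna1 (alpha-catenin) at 31.6 and 23.5.

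Connexins form the channels of gap junctions. Of 15 connexin genes 9 were present, 2 of them lower and 0 higher. The median log2 ratio was -0.46, or -0.26 with absent values raised. The lowest intensity called present was 0.697 on the WT array and 0.898 on the mdx array. A raised mdx value can therefore lie above its WT value, and medians with absent values raised are not lower limits. Gja1, which encodes connexin 43, was at 16.1 in WT and 5.77 in mdx MDSCs, at 9.01 on the Oct4 transgenic array, and absent on the Mst KO array (log2 ratio -1.48). Gja4, the connexin of arterial endothelium, was bright on both arrays, at 67.7 and 57.7.

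Inhibitors of the cell cycle differed from each other. Of the 6 CDK inhibitors and tumor suppressors, all present, 2 were higher, 1 lower and 3 within 2-fold. Cdkn2b, which encodes the p15 inhibitor of Cdk4 and Cdk6, was absent in WT MDSCs at 0.649 and present at 5.44 in mdx MDSCs, and was at 9.64 and 2.31 on the Mst KO and Oct4 transgenic arrays (log2 ratio 3.07, at least 7.80-fold higher). Its neighbor in the genome Cdkn2a, which encodes p16 and p19Arf, was at 0.886 in WT and 1.84 in mdx MDSCs, and at 2.01 and 2.19 on the others (log2 ratio 1.05). Cdkn1a, which encodes the p21 inhibitor induced by p53 and by MyoD, was at 5.59 in WT and 2.11 in mdx MDSCs, and at 1.79 and 5.21 on the others (log2 ratio -1.40). Trp53 itself was at 2.56 and 2.90 and Rb1, the retinoblastoma protein that holds cells in G1, at 2.44 and 1.32 (log2 ratio -0.88).

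Among 10 cyclins and cell cycle drivers, 8 were present, with 2 higher, 1 lower and 5 within 2-fold, and a median log2 ratio of 0.03. Cdk2, the kinase of S-phase entry, was at 1.06 in WT and 2.78 in mdx MDSCs, a log2 ratio of 1.39 that was 0.19 with local background subtracted. Ccnd2, a D-type cyclin, was called absent in WT MDSCs (0.483) and present in mdx MDSCs (1.20, at least 1.72-fold higher). Ccna2, the cyclin of S phase and G2, was present in WT MDSCs at 1.84 but not in mdx MDSCs, at 0.532 (at least 2.05-fold lower). Cdk4, the partner of D-type cyclins, was at 28.0 in WT and 54.7 in mdx MDSCs, a log2 ratio of 0.97 just short of 2-fold. Ccnd1 was at 1.08 and 0.921, Ccnd3 at 12.4 and 8.96 and Ccne1 at 1.75 and 2.04. The kinase genes Cdk6 and Cdc2a (now Cdk1) were absent on both arrays.

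Notch signaling keeps muscle stem cells undifferentiated, and on this array it was represented from receptor to target. Of 16 receptors, ligands and proteases 10 were present, 2 lower and 8 within 2-fold. Notch1 was present in WT MDSCs at 2.65 but not in mdx MDSCs, at 0.824, and at 1.16 and 0.912 on the Mst KO and Oct4 transgenic arrays (at least 2.95-fold lower). Notch3 was present in WT MDSCs at 2.55 but not in mdx MDSCs, at 0.840, and at 1.30 and 1.12 on the others (at least 2.84-fold lower). Notch2 did not share this, at 2.26 in WT and 2.35 in mdx MDSCs (log2 ratio 0.05). The ligand gene Jag1 was at 5.10 and 5.79, and the gamma-secretase subunit genes Ncstn, Psenen and Aph1a had log2 ratios of 0.18, 0.05 and -0.17. The paper prints a higher WT value for Notch2, a lower one for Jag1, and higher Mst KO values for Notch1 and Notch3.

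Of the 16 Notch effectors and regulators 12 were present and none of the 12 was past 2-fold, where 78.3% of all 143 genes lay within it. Their median log2 ratio was -0.18. The target genes Hes1 and Hes5, repressors of differentiation, were at 1.39 and 5.43 in WT MDSCs and at 0.902 and 3.44 in mdx MDSCs (log2 ratios -0.62 and -0.66). The DNA-binding factor Rbpj was at 19.7 and 16.6, and its coactivator Maml1 at 13.1 and 12.8.

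Fibroblast growth factors act on cell division and differentiation in many tissues. Of 26 FGF ligands and receptors 11 were present, with 1 higher, 1 lower and 9 within 2-fold. Their median log2 ratio was -0.00039, or 0.34 with absent values raised, which is not a lower limit of a difference. Fgf5, a ligand known for ending hair growth, was present in WT MDSCs at 1.93 but not in mdx MDSCs, at 0.807 (at least 2.14-fold lower). Fgf17, a ligand of the early brain, was present on the mdx array alone, at 0.922 against 0.255 in WT MDSCs, and was at least 1.32-fold higher with the absent value raised. Fgf7, the keratinocyte growth factor of mesenchymal cells, was at 4.56 and 8.28 (log2 ratio 0.86). Of 18 BMP and TGF-beta genes 6 were present, 1 lower and 5 within 2-fold. Bmper, a secreted BMP-binding protein, was present in WT MDSCs at 1.04 but not in mdx MDSCs, at 0.468, which is at least 1.16-fold lower. The receptors Bmpr2 (23.3 and 19.5), Bmpr1a (8.09 and 8.31) and Bmpr1b (0.757 and 0.966) were close on the 2 arrays. All 5 present genes of the Wnt and hedgehog list lay within 2-fold, the farthest being Frat1, an inhibitor of Gsk3 action on beta-catenin, at 1.33 and 0.695. With local background subtracted Frat1 and another of the 5, Axin1, a scaffold of beta-catenin breakdown, were past it, at log2 ratios of -1.38 and -3.84. The Axin1 spot stood at 587 over a local background of 546 on the WT array, and on the mdx array its 556 was below the local background of 568.

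In the neural and glial list 5 of 10 genes were present and 3 were lower, with a median log2 ratio of -1.12, or -0.28 with absent values raised. Among them were S100b, a calcium-binding protein of glia, at 2.12 and 0.977, and Nes (nestin), an intermediate filament protein of neural and muscle precursors, at 0.699 and, absent, 0.229. Nes turned to a log2 ratio of 0.36 with its absent value raised to 0.898, the lowest intensity called present on the mdx array. Sox3 was at 38.6 and 39.4 and Ncam1 at 1.10 and 0.908. Mme, the cell surface peptidase CD10 found on early lymphoid and on stromal cells, was absent in WT MDSCs at 0.148 and present at 2.08 in mdx MDSCs, with 0.818 on the Mst KO array and an absent call on the Oct4 transgenic array (log2 ratio 3.82, at least 2.99-fold higher). The 2 other present genes of the hematopoietic, immune and endothelial list, Cd3e and Cd8a, had log2 ratios of 0.38 and -0.65.

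Tfrc and Rhob were also lower. Tfrc, the transferrin receptor that brings iron into growing cells, was at 3.04 in WT and 1.33 in mdx MDSCs (log2 ratio -1.19), and Rhob, a small GTPase of endosomes, had a log2 ratio of -1.23 with an absent call on the mdx array, at 0.426. With that value raised Rhob was at least 1.11-fold lower, and it was past 2-fold under 5 of the 9 other scalings and backgrounds that were tried. Of the 10 genes for small GTPases and polarity proteins, a list made after the values were seen, 9 were present and Rhob was the only one past 2-fold. Of 22 genes of pluripotency and self-renewal, 13 were present and none of the 13 was past 2-fold. Over all 143 genes in the comparison, 78.3% lay within 2-fold. The median log2 ratio of the 13 was 0.10. Pou5f1, which encodes Oct 4, was at 10.0 in WT and 11.5 in mdx MDSCs, Myc at 12.4 and 15.0, and Abcg2, the transporter of side population cells, at 4.48 and 4.54. Nanog, Sox2 and Zfp42 were absent on both arrays. The 4 present chromatin modifiers also lay within 2-fold, with the histone deacetylase gene Hdac1 at 6.10 and 3.34 and Hdac2 at 7.48 and 8.36.

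**Figure D3:**
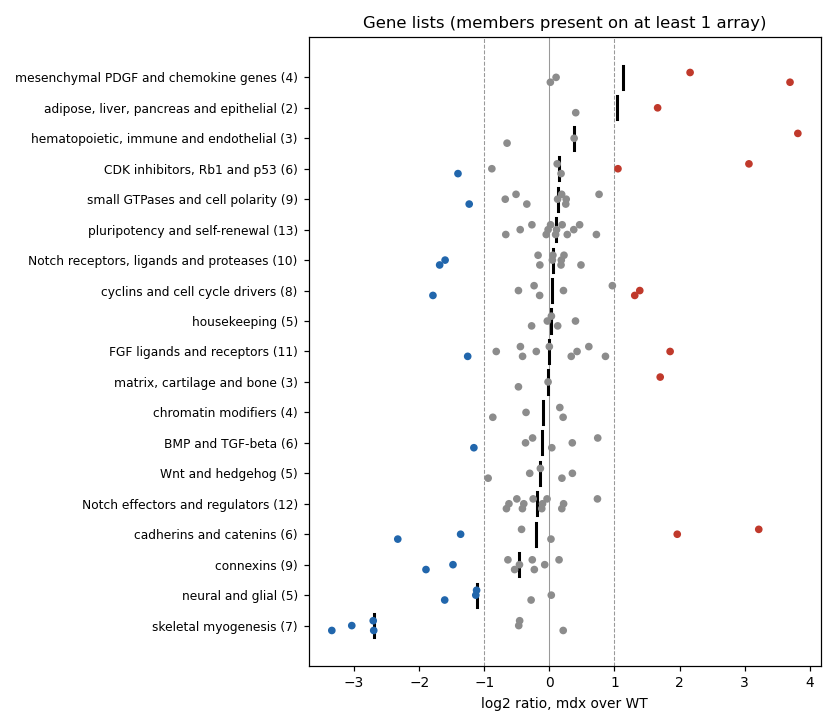
Log2 ratio of mdx over WT on the x axis for the members of 19 gene lists that were present on at least 1 array, 1 point for each gene, with the number of such members in parentheses and the list median as a black bar. Red points are at least 2-fold higher, blue points at least 2-fold lower, and the dashed lines mark 2-fold. The skeletal myogenesis list has its median at -2.70, and the pluripotency and housekeeping lists lie between the dashed lines.

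The 5 housekeeping genes give a scale for these differences. Gapdh was at 113 in WT and 93.2 in mdx MDSCs, Ppia at 89.5 and 91.5, B2m at 33.0 and 36.1, Hsp90ab1 at 30.8 and 30.1 and Rps27a at 20.5 and 27.1, with log2 ratios from -0.27 to 0.40. Gapdh, B2m and Ppia had 3 spots each, and the SD over such repeated spots averaged 0.05 on the log2 scale. This covers only the printing and reading of bright spots, and the spread between cultures is not known. The log2 ratio of the 12S rRNA control spot was 0.02. The 4 present spots of the control series BAS2C were brighter on the mdx array in normalized values, with log2 ratios of 0.58, 0.41, 0.48 and 0.23, and their raw log2 ratios were 0.16, 0.15, 0.22 and -0.03.

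The ratios of dim genes scattered widely. Of 123 genes absent on both arrays for which a ratio could be formed, 45 were 2-fold or more above WT on the mdx array and 9 below, or 43.9%, with an SD of the log2 ratio of 1.78 and a median of 0.44. In raw intensity, with no background subtracted, only 2 of the 125 absent genes were 2-fold higher and 0 lower, and the SD was 0.38. The absent values reached 1.14 on the WT array and 1.37 on the mdx array. Of the 31 genes past 2-fold, 7 had a higher value below 1.37, among them Nes, Rhob, Bmper, Fgf17, Ppard and Ccnd2.

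Each spot also has a deposited local background, read next to it on the membrane. Of the 12 genes higher in mdx MDSCs, 2 had a spot below 1.5 times its local background on both arrays. These were Fgf17, with a spot of 463 over a local background of 429 on the mdx array and 286 over 268 on the WT array, and Ppard, with 514 over 384 and 319 over 247. Of the 19 lower genes this was so for Nes, with 249 over 278 on the mdx array and 451 over 335 on the WT array. Cdk2 was a different case. Its spot on the mdx array, at 1039, had a local background of 774, against 585 and 282 on the WT array, and it lay directly next to the spot of Cdh11, which had a raw intensity of 21436 on the mdx array and 2926 on the WT array. The ratio of spot to local background was thus lower on the mdx array than on the WT array. The part of the bright neighbor in the Cdk2 value was not tested. Cdh6 lay next to Col1a1, at 32624 on the mdx array and 12108 on the WT array, and with local background its log2 ratio was 2.12. S100b, among the lower genes, lay next to Spp1, at 26362 on the WT array and 2338 on the mdx array. The S100b spot had a local background of 514 on the WT array and 309 on the mdx array. With local background its log2 ratio was -1.05, and the part of the neighbor was not tested.

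**Figure D4:**
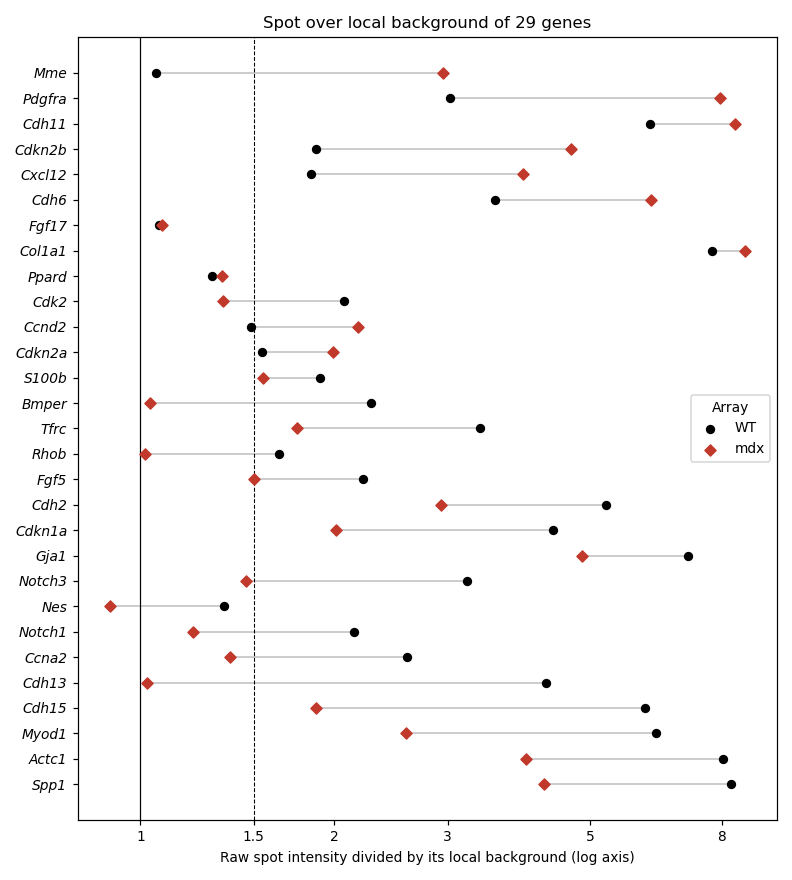
Raw spot intensity divided by its local background on a log axis for 29 of the 31 genes, with WT as black circles and mdx as red diamonds. The solid line marks 1 and the dashed line 1.5. Fgf17, Ppard and Nes lie left of the dashed line on both arrays, and Cdk2 is lower on the mdx array than on the WT array although its deposited value is higher there.

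The ratios were recomputed under 9 other scalings and backgrounds. Among these, the series value table holds the same values rounded, and scaling to 5 housekeeping genes shifted every log2 ratio by -0.05. Neither could change much, and raising absent values cannot change the ratio of a gene present on both arrays. Of the 12 genes higher in mdx MDSCs, 7 stayed at least 2-fold higher under all 9, namely Mme, Pdgfra, Cdh11, Cdkn2b, Cxcl12, Cdh6 and Col1a1. Of the 19 lower genes, 11 stayed at least 2-fold lower, namely Spp1, Actc1, Myod1, Cdh15, Cdh13, Ccna2, Notch1, Notch3, Gja1, Cdkn1a and Cdh2. The log2 ratio of Pdgfra ran from 3.22 to 3.99, that of Cdh11 from 2.87 to 3.49 and that of Col1a1 from 1.43 to 1.98. That of Spp1 ran from -3.50 to -3.07, that of Myod1 from -2.80 to -2.43 and that of Cdh15 from -2.98 to -2.32. Some genes within 2-fold in the deposited values passed it elsewhere. Scaled to Gapdh alone, the log2 ratio was 1.24 for Cdk4 and 1.13 for Fgf7, and with local background that of Rb1 was -1.36. Among the lists with few or no genes past 2-fold, Ctbp1 of the Notch effectors, Bmp1 and the small GTPase gene Rac2 reached log2 ratios of 1.01, 1.02 and 1.04 with Gapdh alone.

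**Figure D5:**
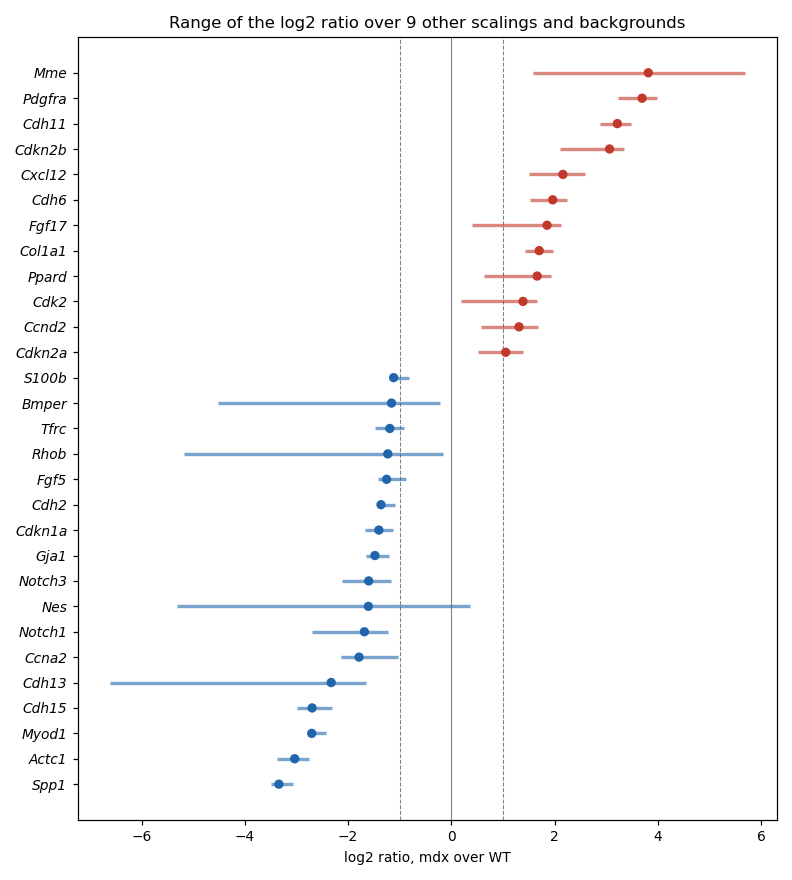
Log2 ratio of mdx over WT for 29 of the 31 genes, with the deposited values as points and the range over 9 other scalings and backgrounds as bars. Dashed lines mark 2-fold. The bars of 18 genes stay outside the dashed lines, and that of Nes crosses 0.

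Set against all 4 arrays, which shared 149 genes present on at least 1 of them, the mdx array had the highest value for 25 genes (16.8%) and the lowest for 46 (30.9%). It was the highest for 7 of the 12 genes that were higher than in WT MDSCs, and the lowest for 14 of the 19 that were lower, counts that rest in part on how these genes were chosen. Only Fgf17 and Mme (1.34%) were at least 2-fold above each of the other 3 arrays, by 3.62-fold and 2.54-fold, and no gene was at least 2-fold below each of them. For Fgf17 all 3 of the other values were absent calls, and its spot stood little above the local background.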

How the data were processed

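RNA of the WT, mdx, Mst KO and Oct4 transgenic MDSCs was measured on 1 chemiluminescent membrane array each. The deposited normalized intensity was made by the authors' array software. Per the file headers, its background was the minimum value and its threshold for present calls was 1.5. The paper names housekeeping genes for normalization, whereas each deposited value was found to be the difference between the spot and the lowest spot of the array, over the average of the 144 middle differences. The deposited raw intensity and local background of each spot, the authors' calls and the series value table, which holds the same intensity values rounded, were also read. Labeled cRNA is named in the sample records and cDNA in the paper. The authors' group ratios were not used.

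Spots of one gene were averaged. Genes with a present call on either array entered the comparison, with 2-fold as threshold. For a gene absent on 1 array, a lower limit was taken with its value brought up to the lowest intensity called present there. It holds for the deposited values only, and some absent calls lay above that intensity. With 1 array per MDSC type no test was run, and precision is limited by this number of arrays. The members and the 18 gene lists were chosen with earlier results of these data known, and 1 list was added later. The named genes were those past 2-fold or within 1.8 to 2.2-fold, in each list up to 4 present genes with the largest ratio and up to 2 nearest to 0, the housekeeping genes and the cell type markers. Of these, 3 enter the counts but are not reported here. Aph1a, Ccnd1, Ccnd3, Gja4, Jag1, Myc, Ncstn, Rbpj, Snai1, the unlisted genes Adar, Col10a1, Eif4e, Hdac9 and Hspa9, and list members called absent were chosen after their values were seen. For the counts, 12 alternatives were set beforehand and 2 added after the data were examined. Accessions of 257 genes matched RefSeq of GRCm38.p6, and 14 genes had a newer symbol. The counting was tested on simulated data. Python 3.11.15, numpy, pandas and matplotlib were used.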

Additional observations from a re-analysis of the deposited data

How the results depend on the processing

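The counts of 12 higher and 19 lower genes in mdx MDSCs were equal with 5 housekeeping genes, the median of genes present on both arrays, quantile normalization and the series value table. Scaled to Gapdh alone they were 18 and 13, which moved the higher share of the calls from 38.7% to 58.1% and the median of all genes to 0.24. With local background they were 13 and 24, and with absent values raised 9 and 15. With no background subtraction and 5 housekeeping genes they were 8 and 11. With absent genes included they were 57 and 28, and with genes present on both arrays only, which leaves fewer genes, 7 and 10. Thresholds of 1.5-fold and 3-fold gave 20 and 30, and 9 and 10. In 2 alternatives added after the data were examined, raw unscaled intensities gave 7 and 17, with a median of -0.26, and spots at least 1.5 times their local background on 1 array gave 10 and 18. Of the 31 genes, 2 changed sign under the 9 scalings and backgrounds. Among them was Nes, whose log2 ratio turned to 0.36 with absent values raised, since the raised mdx value of 0.898 is above its WT value. No paired analysis was possible because each MDSC type has 1 array. Signal over background limits the dim genes.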

Other observations

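Among genes in no list, Hspa9, a mitochondrial chaperone, reached 8.45 in WT MDSCs and 14.5 in mdx MDSCs in normalized intensity (log2 ratio 0.78). Hdac9, a histone deacetylase that holds back muscle gene activation by MEF2 factors, was at 3.65 and 2.12 (-0.79). Both lay within 2-fold in the deposited values, and scaled to Gapdh alone Hspa9 was past it, at a log2 ratio of 1.05. Of 15 such genes present on at least 1 array, Tfrc was the only one past 2-fold in the deposited values, and the median log2 ratio of the 15 was 0.02. Eif4e, the cap-binding factor of translation, was at 19.4 and 17.9, and Adar, an RNA-editing enzyme, at 19.9 and 20.8.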
